A study of Rattus norvegicus with 8 samples.

Results

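The Hox genes are the homeobox transcription factors that give cells along the body axis their position. They were read here from the probe sets that the platform annotation gives exactly 1 symbol made of Hox, a cluster letter (a to d) and a paralogue number. This left 31 genes, each with 1 probe set, among 18166 genes tested on the array. RefSeq lists 39 rat Hox genes on the GRCr8 assembly, and the other 8 were not analysed here. The RNA came from thoracic spinal cord of male Long Evans rats of about 175 days. The injured group (SCI, 4 arrays) had a thoracic spinal cord injury, and the sham group (4 arrays) a laminectomy without cord injury. Rats of both groups weighed about 400 g, ate chow with 17% fat during 4 weeks of recovery and then a high-fat diet with 40% fat, so the diet is shared and is not compared. The labels give a total of 8 weeks, without saying whether this is the diet or the whole study. The labels place the piece of cord at T10-11 in one field and at T11-12 in another, and neither the lesion level nor its distance from the piece is given in the sources used here. They do not tie an array to an animal, so if arrays shared animals the spread behind the p-values would be technical in part or in full.

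Hox genes lie in 4 clusters, A to D, and genes with the same paralogue number in different clusters descend from 1 ancestral gene. Low numbers are switched on first and reach furthest forward, to the hindbrain, and high numbers are switched on last and stay near the tail. In the mouse cord, Hox4 to Hox8 genes act at cervical and forelimb levels, Hoxc9 sets the thoracic motor columns and blocks the forelimb programme, and Hox10 genes set the lumbar motor columns. Part of this code is kept in the adult, so Hox signals were read as a rough check that pieces of cord came from like levels in both groups. No piece from another known level was measured, so how far these signals differ between neighbouring segments was not tested.

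In this cord, Hox genes of paralogue numbers 1 to 9 mostly had signals above those of olfactory receptor genes. Those from number 10 on were dim at the level chosen, and 4 of these 9 were above a lower one. In SCI, 0 Hox genes were higher and 1, Hoxa7, was lower at a limma adjusted p under 0.05. That is 3.23% of the 31 genes, against 14.2% of all genes tested (7.1% higher and 7.06% lower). At an unadjusted p under 0.05, 2 Hox genes were higher and 4 lower, 19.4% of them against 26.7% of all genes. The call of Hoxa7 did not hold when any of 7 of the 8 arrays was left out.

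The 8 arrays had medians of 3.73 to 3.81 on the log2 scale, and a first component with 45.6% of the variance parted the groups. SCI 3, sham 1 and sham 2 stood apart from the other arrays on the second component, which held 11.2%. Markers of spinal cord cells were well above the dim range: pan-neuronal markers averaged 8.56 to 8.83 in SCI arrays and 9.17 to 9.30 in sham arrays, and oligodendrocyte and myelin markers 8.84 to 9.08 in SCI arrays and 9.49 to 9.54 in sham arrays. For all gene lists, genes counted as having risen or fallen are those called at a limma adjusted p under 0.05, and others may differ in mean. Of all genes, 7.1% were called higher and 7.06% lower. All 15 pan-neuronal genes tested fell, among them the splicing factor Rbfox3 (-0.61), and 9 of 11 myelin genes fell, among them Mbp (-0.70). Microglia and macrophage markers averaged 7.44 to 7.88 in SCI arrays and 6.15 to 6.42 in sham arrays, 11 of 13 rose, and Cd68 rose by 4.17. Fibroblast and meningeal markers averaged 6.53 to 6.92 in SCI arrays and 5.85 to 6.23 in sham arrays, 9 of 15 rose, and Col1a1 rose by 0.93. Of 9 astrocyte genes 2 rose, among them Gfap (0.81), and 1 fell. Without SCI 3, sham 1 and sham 2 the adjusted p was 0.10 for Rbfox3 and 0.080 for Col1a1, and with the number in the sample titles as a covariate it was 0.058 for Rbfox3. The part of this changed mix of cells in any Hox value was not tested. In whole tissue, fewer cells of a type and less RNA per cell cannot be told apart.

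The promoters of 3 neighbouring genes of cluster A are shown because the probe set signals, described further on, were 7.23 at Hoxa7, 4.87 at Hoxa9 and 2.78 at Hoxa10. Each line gives the 250 bases before the transcript start from RefSeq on GRCr8, 5′ to 3′ on the minus strand, at chr4:82648242-82648491, chr4:82657049-82657298 and chr4:82671491-82671740, with CpG pairs in capitals.
Hoxa7: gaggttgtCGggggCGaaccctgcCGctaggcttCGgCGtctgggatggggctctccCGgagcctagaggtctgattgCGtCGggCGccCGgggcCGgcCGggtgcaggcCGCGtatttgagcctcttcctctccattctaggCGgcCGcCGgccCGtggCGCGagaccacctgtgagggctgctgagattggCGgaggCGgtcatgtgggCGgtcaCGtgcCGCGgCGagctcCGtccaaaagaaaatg
Hoxa9: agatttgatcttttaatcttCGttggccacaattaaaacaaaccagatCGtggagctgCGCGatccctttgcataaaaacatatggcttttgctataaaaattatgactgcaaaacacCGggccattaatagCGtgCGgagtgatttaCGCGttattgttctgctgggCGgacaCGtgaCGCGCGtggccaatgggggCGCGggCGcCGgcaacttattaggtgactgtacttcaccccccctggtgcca
Hoxa10: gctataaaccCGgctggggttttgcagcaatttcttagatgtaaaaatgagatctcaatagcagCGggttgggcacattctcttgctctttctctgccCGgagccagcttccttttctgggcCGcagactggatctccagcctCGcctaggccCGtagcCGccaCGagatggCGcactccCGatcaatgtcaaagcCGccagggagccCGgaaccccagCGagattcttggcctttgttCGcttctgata

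These 3 stretches hold 28, 18 and 14 CpG pairs. Promoter sequences were at hand for 15 of the 31 Hox genes. Over 300 bases (250 before to 50 after the start) these 15 had a median of 21 CpG pairs, with a range of 6 to 42, against a median of 7 over 27457 promoters. The 9 whose genes lay above the receptor level defined below had a median of 19 and the 6 at or under it a median of 27. A composite Pbx and Hox motif, TGATTNAT on either strand, was in 1 of the 15 (Hoxa2) and in 3.15% of all promoters. The Meis motif TGACAG was in 3 of 15 (20% against 18.8%), and the Cdx motif TTTATG in 2 of 15 (13.3% against 12.5%). A match or its absence in this window says nothing of binding.

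Signals are given as deposited log2 values, so that 1 unit is a doubling. They depend on each probe set's own probes as well as on its RNA, so an order of genes by signal is an order of signals, described without a test. As a mark of a probe set with little or no target, the 95th percentile of the mean signals of 227 olfactory and vomeronasal receptor genes was taken, 3.57, called the receptor level. No detection calls were used, so a gene under it is called dim and not absent. A gene above it is not thereby called expressed, and the median gene lay at 4.74. Of the 22 Hox genes with paralogue numbers 1 to 9, 20 were above the receptor level. Of the 9 with numbers 10 to 13, 0 were above it. At the 90th percentile, 2.62, all 22 genes of numbers 1 to 9 were above, and so were 4 of the 9 from number 10 on (Hoxa10, Hoxc10, Hoxd10 and Hoxc13). At the 99th percentile, 4.26, 18 of the 22 and 0 of the 9 were above. The boundary at number 10 thus depends on the level chosen.

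**Figure D1:**
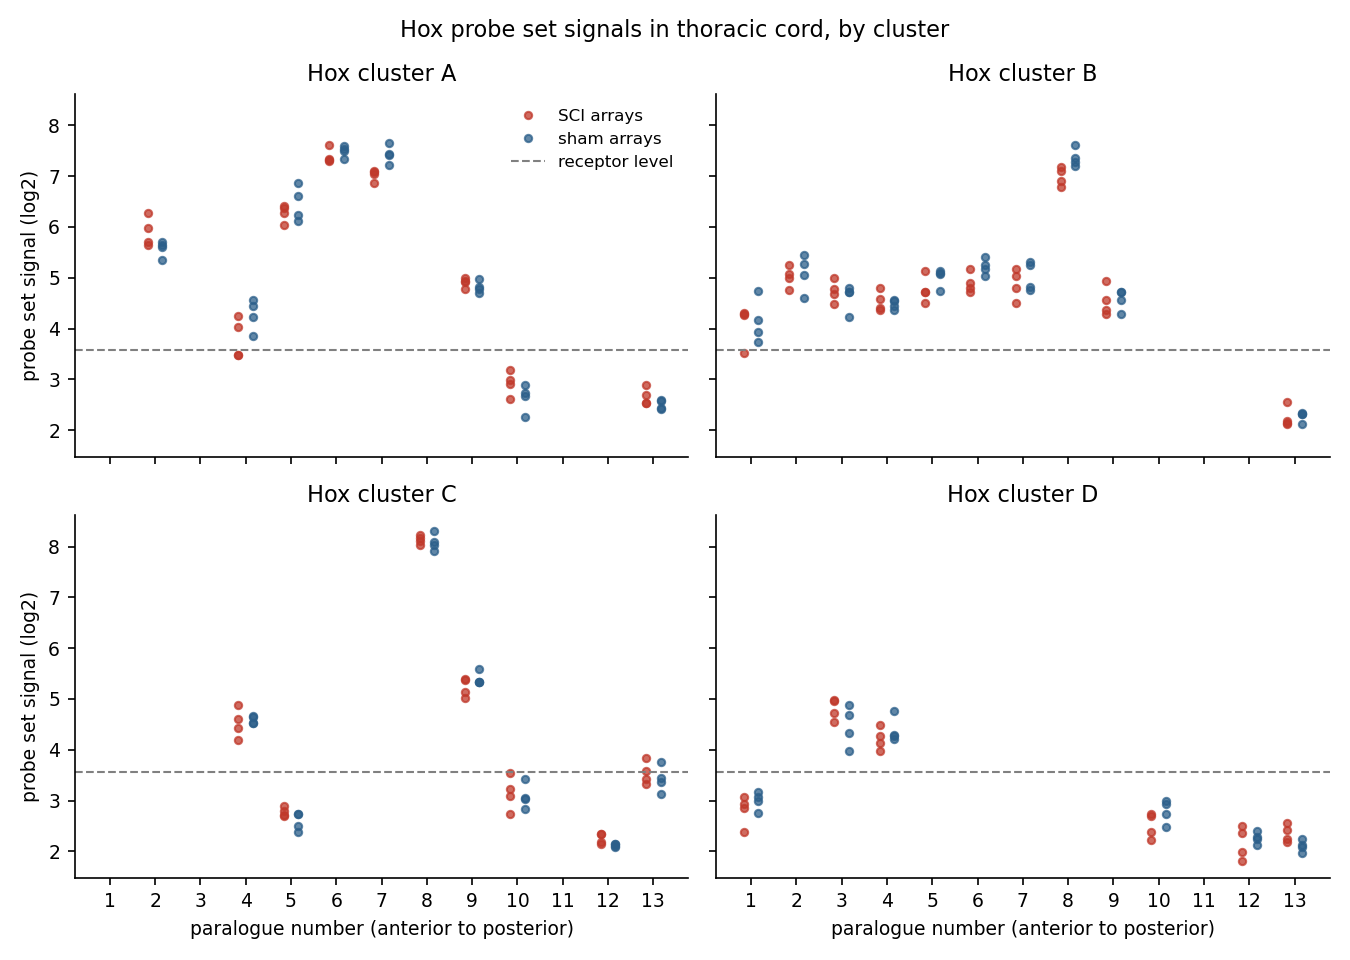
Log2 signal of each Hox probe set (vertical axis) by paralogue number (horizontal axis), with 1 panel per cluster, SCI arrays in red left of sham arrays in blue, and the receptor level of 3.57 as a dashed line. In clusters A, B and C the highest signals are at numbers 6 to 8, and all genes from number 10 on have means under the line.

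The most anterior group, numbers 1 to 3, had mean signals of 2.90 to 5.74 over 6 genes. Hoxa2, which patterns the second pharyngeal arch and the anterior hindbrain, read 5.65, 5.98, 5.70 and 6.28 in SCI arrays, against 5.65, 5.34, 5.70 and 5.60 in sham arrays. SCI 2 and SCI 4 were above every sham array and SCI 1 and SCI 3 were among them (0.33, SE 0.15, adjusted p = 0.19, with a difference of 0.20 without SCI 4). Hoxd3, a gene of neck and anterior axial patterning, read 4.95, 4.98, 4.73 and 4.54 in SCI arrays, against 4.32, 4.69, 3.97 and 4.88 in sham arrays. The groups overlapped, and the sham arrays spread over nearly a unit (0.34, SE 0.19, adjusted p = 0.30, with a difference of 0.17 without sham 3). Hoxb1, known for setting a single segment of the hindbrain, averaged 4.09 ± 0.38 in SCI arrays and 4.15 ± 0.44 in sham arrays (SD, n = 4), and Hoxb2 averaged 5.02 ± 0.20 and 5.09 ± 0.37 in the same order. Hoxb3 differed by 0.12 (SE 0.15). Hoxd1 was dim, with a mean of 2.90 over all arrays.

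Numbers 4 and 5, whose genes act from the neck down, had mean signals of 2.68 to 6.36 over 7 genes. Against 14.2% of all genes, 0 of the 7 were called. Hoxa5, needed in mouse for phrenic motor neurons and lung, was the brightest of these, at 6.38, 6.42, 6.03 and 6.27 in SCI arrays and 6.23, 6.12, 6.87 and 6.60 in sham arrays. The groups overlapped, with sham 3 and sham 4 above all SCI arrays (-0.18, SE 0.17, adjusted p = 0.56). The difference was -0.04 without sham 3, -0.10 without SCI 3 and -0.08 with the number in the sample titles as a covariate. Hoxa4 had the largest absolute difference of the 31 genes in the fit without covariates. It read 3.47, 3.48, 4.25 and 4.02 in SCI arrays, against 3.86, 4.57, 4.23 and 4.44 in sham arrays. SCI 1 and SCI 2 were the lowest of the 8 arrays and under the receptor level, the groups overlapped, and it did not pass (-0.47, 95% interval -0.92 to -0.01, adjusted p = 0.17). With the number in the sample titles as a covariate the difference was -0.17, smaller in size than those of Hoxa7 (-0.47) and Hoxb8 (-0.39) in that fit. Hoxb4, Hoxc4 and Hoxd4, the other paralogues of number 4, had differences of 0.06, -0.06 and -0.17. Hoxb5 had -0.25 (SE 0.15), and Hoxc5 was dim at 2.68.

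Numbers 6 to 8 held the brightest Hox signals, with means of 4.95 to 8.11 over 6 genes. Hoxc8, which in mouse shapes forelimb motor pools, was the brightest Hox gene and ranked at the 95.9th percentile of all genes. It read 8.16, 8.10, 8.03 and 8.24 in SCI arrays, against 8.08, 8.04, 8.30 and 7.91 in sham arrays. The SCI values lay within the sham range (0.05, 95% interval -0.19 to 0.28, adjusted p = 0.84), and without sham 4 the difference was -0.0093. Hoxa6, an axial patterning gene of the trunk, read 7.29, 7.31, 7.33 and 7.61 in SCI arrays, against 7.50, 7.54, 7.59 and 7.34 in sham arrays. SCI 4 was the highest of all 8 arrays and the other SCI arrays the lowest (-0.10, SE 0.11, adjusted p = 0.61).

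Hoxa7, the neighbour of Hoxa6 and also a trunk patterning gene, was the Hox gene that passed the test. It read 7.10, 7.05, 7.09 and 6.86 in SCI arrays, against 7.45, 7.42, 7.66 and 7.22 in sham arrays. All 4 SCI arrays were below all 4 sham arrays, as groups did not overlap in 20.3% of all genes. The mean was 7.02 ± 0.11 in SCI arrays and 7.44 ± 0.18 in sham arrays (SD, n = 4), so it fell by 0.41 on the log2 scale (SE 0.11, 95% interval -0.66 to -0.16, adjusted p = 0.034), or to 0.752 of the sham signal. The adjusted p was 0.056 to 0.088 without any of the SCI arrays or without sham 1, sham 2 or sham 3, and 0.026 without sham 4. It was 0.054 with quantile normalisation, 0.093 with all probe sets tested and 0.071 with the number in the sample titles as a covariate. It stayed under 0.05 with arrays centred (0.021), array weights (0.041), probe sets averaged (0.034), dimmer genes left out (0.0093) or a variance trend (0.0065). It was 0.18 without SCI 3, sham 1 and sham 2 together, where the difference was -0.44. In the same arrays all 15 pan-neuronal genes fell, with a list median of -0.52, and the part of this in the fall of Hoxa7 was not tested.

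Hoxb8, a gene that in mouse marks a lineage of microglia and acts in the dorsal horn, read 7.11, 6.78, 6.91 and 7.19 in SCI arrays, against 7.37, 7.60, 7.27 and 7.20 in sham arrays. Its groups also did not overlap, though SCI 4 and sham 4 were 0.01 apart at 7.19 and 7.20. It did not pass (-0.36, 95% interval -0.64 to -0.09, adjusted p = 0.084), and it passed with a variance trend in the model (0.026) or with dimmer genes left out (0.029). Without SCI 3, sham 1 and sham 2 its difference was -0.21. Hoxa7 and Hoxb8 were the 2 Hox genes of 31 with groups apart, 6.45% against 20.3% of all genes. Hoxb6 read 4.91, 5.17, 4.73 and 4.81 in SCI arrays, against 5.04, 5.25, 5.41 and 5.18 in sham arrays. SCI 2 was among the sham arrays and the other SCI arrays were below them (-0.32, SE 0.12, adjusted p = 0.11, and 0.043 with dimmer genes left out). Hoxb7, the paralogue of Hoxa7, had -0.16 (SE 0.17). Of the 6 genes of numbers 6 to 8, 5 thus had a lower mean in SCI and 1 was called (16.7%, against 14.2% of all genes). At an unadjusted p under 0.05 limma counted 3 of them, all lower (50% against 26.7%). Groups lay apart in 2 (33.3% against 20.3%). Their joint mean, with Hoxa7 and Hoxb8 counted in, was 6.48 to 6.65 in SCI arrays and 6.68 to 6.92 in sham arrays, and it has no test.

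**Figure D2:**
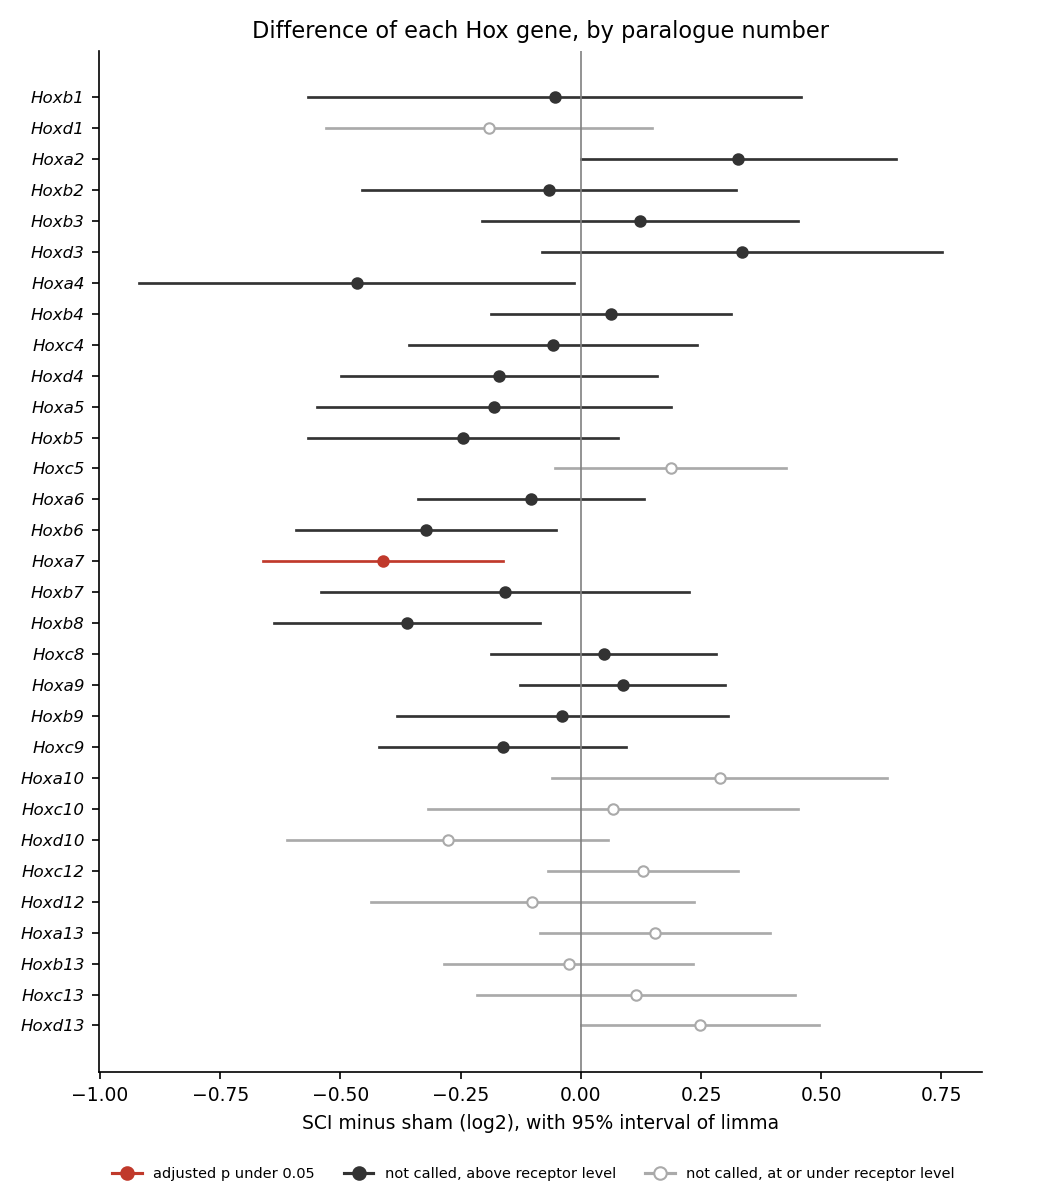
SCI minus sham difference (log2, horizontal axis) of each Hox gene with its 95% interval from limma, from paralogue number 1 at the top to 13 at the bottom. Hoxa7 (red, -0.41) is the gene called, and open grey circles are dim genes.

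Number 9, the group of the thoracic cord in mouse, had intermediate signals in all 3 genes measured. Hoxc9, which sets thoracic motor columns in mouse, read 5.38, 5.40, 5.13 and 5.02 in SCI arrays, against 5.33, 5.58, 5.33 and 5.33 in sham arrays. The groups overlapped (-0.16, 95% interval -0.42 to 0.09, adjusted p = 0.43). The difference was -0.09 without SCI 4, -0.10 without sham 2, and with SCI 3, sham 1 and sham 2 all left out it was -0.07. Hoxa9, which also acts in blood progenitors, read 4.95, 4.78, 4.91 and 4.99 in SCI arrays, against 4.82, 4.97, 4.71 and 4.78 in sham arrays. Its SCI and sham values were mixed in order (0.09, 95% interval -0.13 to 0.30, adjusted p = 0.64, with a difference of 0.05 without sham 3). Hoxb9, which acts with its paralogues on the ribs, read 4.29, 4.37, 4.57 and 4.93 in SCI arrays, against 4.56, 4.73, 4.29 and 4.73 in sham arrays. The groups overlapped, with the highest and the lowest reading both in SCI (-0.04, 95% interval -0.38 to 0.31, adjusted p = 0.92), and the sign turned in 4 of the 8 fits that left out an array.

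From number 10 on, the groups for lumbar and more caudal levels in mouse, signals were dim. Hoxc10 had the highest mean of number 10, at 3.15 ± 0.33 in SCI arrays and 3.09 ± 0.24 in sham arrays (SD, n = 4). Hoxa10 averaged 2.92 ± 0.24 in SCI arrays and 2.63 ± 0.27 in sham arrays, and Hoxd10 averaged 2.51 ± 0.25 in SCI arrays and 2.79 ± 0.23 in sham arrays. The differences of these paralogues had opposite signs, and 0 of the 3 passed, against 14.2% of all genes. Hoxc12, Hoxd12, Hoxa13, Hoxb13 and Hoxd13 had means of 2.19 to 2.59, and Hoxc13 had 3.48, just under the receptor level. Hoxd13 had an unadjusted p of 0.0499 and an adjusted p of 0.19. Both groups were dim for all of these, so no fold is given.

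By cluster, the 8 genes of A had a median difference of -0.01, the 10 of B of -0.06, the 7 of C of 0.07 and the 6 of D of -0.14, beside -0.01 over all genes. The median over all 31 Hox genes was -0.05, with 13 above and 18 below 0. The 95% intervals had half-widths of 0.20 to 0.51 with a median of 0.33. As a check on cord level with 1 value per array, the mean of Hoxa9, Hoxb9 and Hoxc9 minus the mean of the 8 genes of numbers 4 to 6 above the receptor level was taken. It was -0.09, -0.19, -0.17 and -0.19 in SCI arrays and -0.22, -0.21, -0.55 and -0.25 in sham arrays. All SCI values lay above the sham values, by little except for sham 3, and the means were -0.16 ± 0.05 in SCI arrays and -0.31 ± 0.16 in sham arrays (SD, n = 4). The difference was 0.15, and 0.066 without sham 3. Its parts were 4.85 to 4.98 in SCI arrays and 4.77 to 5.10 in sham arrays for number 9, and 4.96 to 5.17 in SCI arrays and 5.13 to 5.33 in sham arrays for numbers 4 to 6, and both ranges overlapped. This value over several members has no test.

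**Figure D3:**
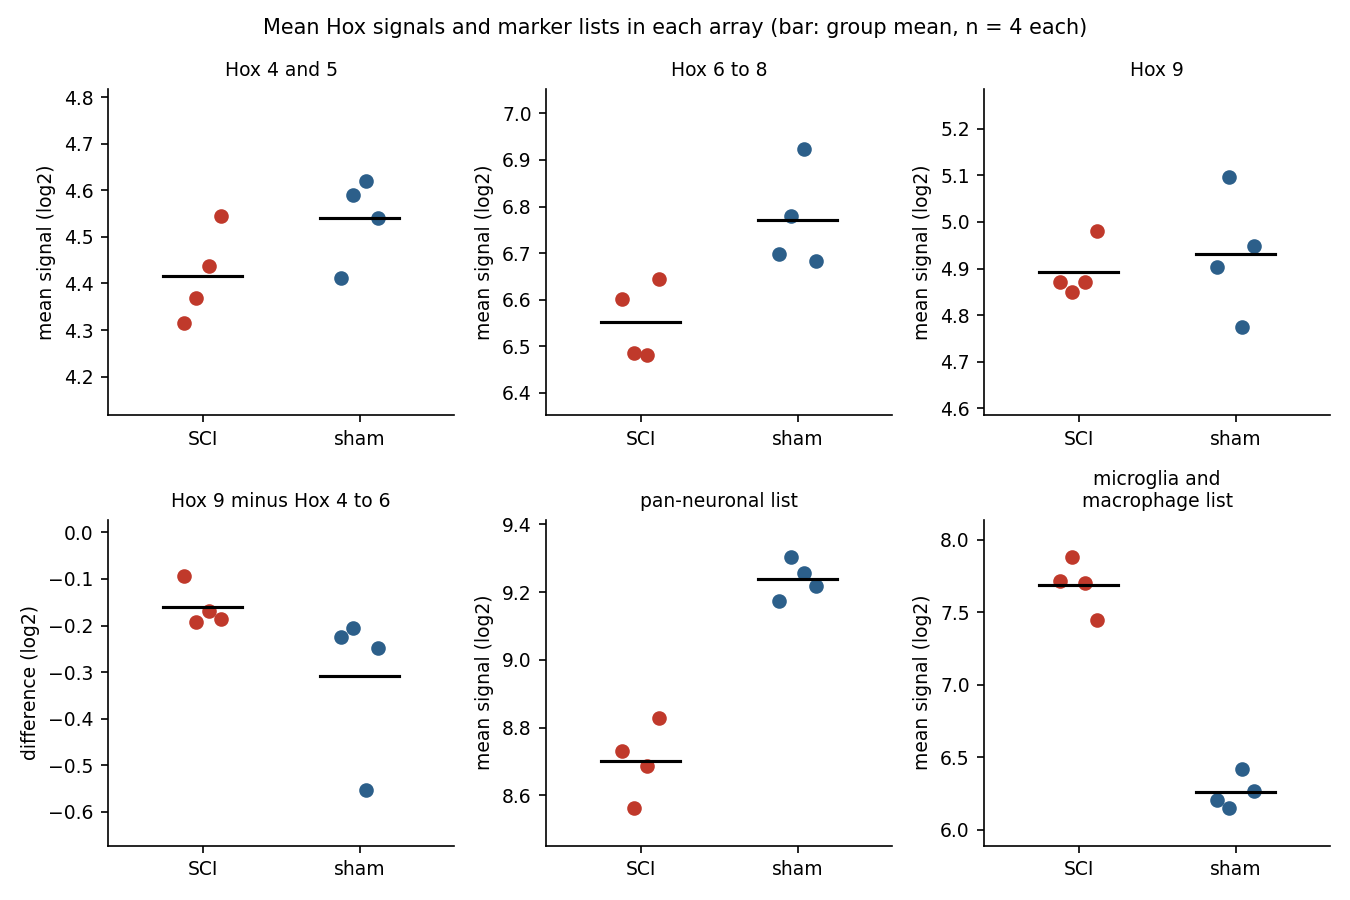
Mean log2 signal per array (vertical axes, each with its own range) for Hox numbers 4 and 5, 6 to 8 and 9, their caudal minus rostral difference, and the pan-neuronal and the microglia and macrophage lists, SCI left of sham. The caudal minus rostral value is -0.19 to -0.09 in SCI arrays and -0.55 to -0.21 in sham arrays, while the microglia and macrophage list is at 7.44 to 7.88 in SCI arrays and 6.15 to 6.42 in sham arrays.

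A list of head and forebrain genes that lie outside the Hox code was set beside it. Whether each of them is confined to the head was not checked. Of 15 head and forebrain genes tested, 12 were at or under the receptor level, and Otx1 (4.54), Six6 (4.46) and Gbx2 (4.05) were above it. Of these 15, 0 passed limma's test and 0 had an unadjusted p under 0.05, against 14.2% and 26.7% of all genes. Homeobox genes that mark spinal interneurons and dorsoventral position were measured for 25 genes, of which 19 were above the receptor level. Of the 25, 2 passed the test (8% against 14.2% of all genes), and in each the lower group was under the receptor level. Lbx1, a factor of dorsal horn neurons, fell (adjusted p = 0.017), at 3.31 in SCI arrays, 3 of the 4 under the receptor level, and 3.97 in sham arrays. Irx1, an Iroquois factor, rose (adjusted p = 0.017), at 3.97 in SCI arrays and 3.38 in sham arrays. All 4 sham arrays were under the receptor level for Irx1, and its SCI mean was 1.32 times that level. This ratio has no interval and is not a lower bound, since the level comes from other genes. The 95% interval of the Irx1 difference was 0.29 to 0.90 on the log2 scale. The adjusted p of Lbx1 was 0.051 without SCI 1 and 0.055 without SCI 2, and without SCI 3, sham 1 and sham 2 together Lbx1 was at 0.18 and Irx1 at 0.059. With the title number as covariate they were at 0.093 and 0.051, and with all probe sets tested at 0.061 and 0.058. With probe sets of a gene averaged, Irx1 was at 0.055.

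Hox proteins bind DNA together with TALE homeodomain partners, the Pbx, Meis and Pknox proteins. Of 10 genes of this class (median -0.04), 2 rose and 1 fell (30% called, against 14.2% of all genes), all lay above the receptor level, and the repressors Tgif1 and Tgif2 are counted in. Pbx3, the brightest of them, fell by 0.56 (SE 0.13, adjusted p = 0.016), at 7.73 ± 0.05 in SCI arrays and 8.29 ± 0.27 in sham arrays (SD, n = 4). Meis3 rose by 0.41 (SE 0.10, adjusted p = 0.017) and Tgif1, which opposes retinoid and TGF-beta signals, rose by 0.61 (SE 0.14, adjusted p = 0.014). Without SCI 3, sham 1 and sham 2 the adjusted p of Pbx3, Meis3 and Tgif1 was 0.10, 0.071 and 0.082, and with all probe sets tested 0.057, 0.053 and 0.052. With the title number as covariate Pbx3 was at 0.067 and Meis3 at 0.086, and Meis3 was at 0.053 without sham 4. Meis1 (-0.28) and Meis2 (-0.21) did not pass.

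Polycomb complexes keep silent Hox genes shut and Trithorax-type proteins keep active ones open. Of 9 genes of Polycomb repressive complex 2, including the methyltransferases Ezh1 (-0.32) and Ezh2 (0.24), 0 passed. Of 9 Trithorax-type activators and H3K27 demethylases 0 passed, and 14.2% of all genes did. At an unadjusted p under 0.05 limma counted 3 of the Polycomb 2 genes and 2 of the Trithorax-type list, beside 26.7% of all genes. Of 14 genes of Polycomb repressive complex 1, 1 rose, beside 7.1% of all genes. This was Rnf2, the ubiquitin ligase subunit (0.36, SE 0.11, adjusted p = 0.045). Its adjusted p was 0.060 to 0.12 without any 1 array but sham 3, at 0.078 with arrays centred, at 0.11 with all probe sets tested, at 0.13 with the title number as covariate and at 0.29 without SCI 3, sham 1 and sham 2. The medians of these 3 lists were 0.04, -0.02 and -0.01.

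Among 17 genes that set the Hox code in the embryo, 2 rose (11.8%, against 14.2% of all genes called), a share near the background. Aldh1a2, which makes retinoic acid, a signal that switches on anterior Hox genes, and is also expressed by meningeal cells, read 7.28 ± 0.19 in SCI arrays and 6.49 ± 0.20 in sham arrays (SD, n = 4; 0.79, SE 0.13, adjusted p = 0.0030), with 0.058 without SCI 3, sham 1 and sham 2. Cyp26b1, which breaks it down, rose by 0.61 (SE 0.17, adjusted p = 0.032). Its adjusted p was 0.053 to 0.093 without any 1 array but SCI 4 and sham 1, 0.096 with all probe sets tested and 0.19 with the title number. In the same arrays 9 of 15 fibroblast and meningeal markers rose, and their part in these rises was not tested. The caudal factors Cdx1, Cdx2 and Cdx4, which switch on trunk Hox genes, were dim at 2.61 to 3.28.

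**Figure D4:**
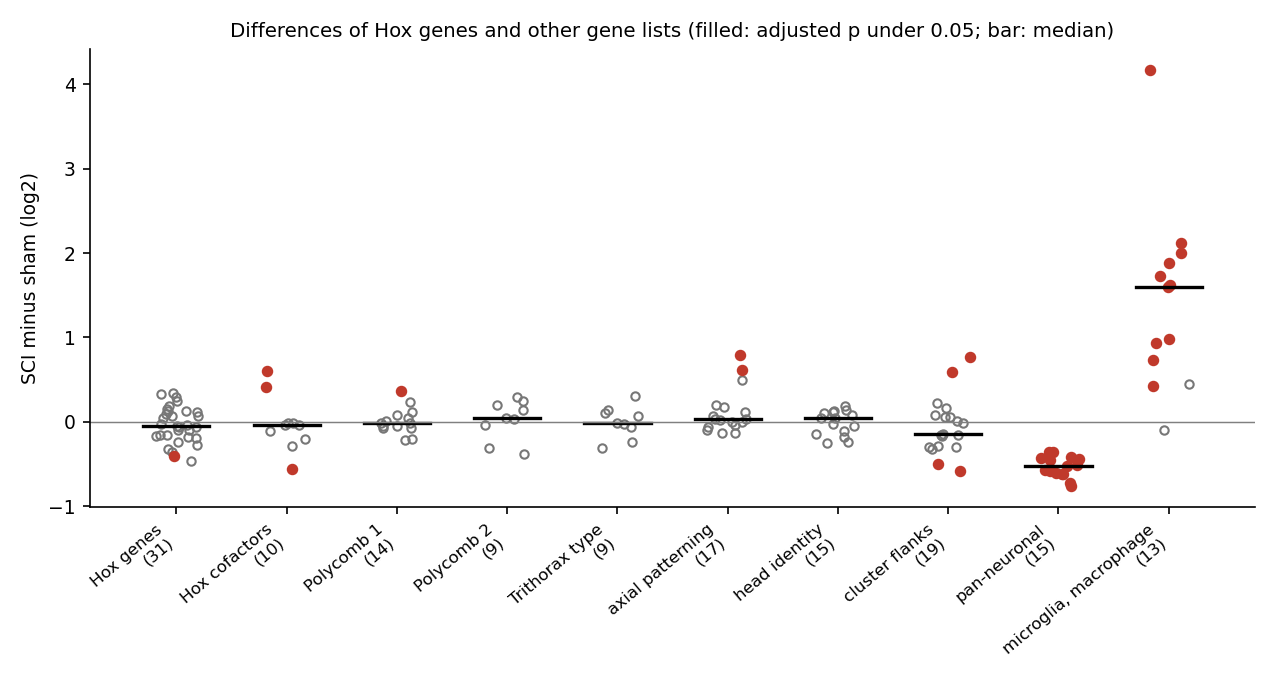
SCI minus sham differences (log2, vertical axis) of the genes of each list (horizontal axis, number of genes tested in brackets), filled red where the adjusted p was under 0.05, with the list median as a bar. The Hox genes lie between -0.47 and 0.34, while the pan-neuronal list has a median of -0.52 and the microglia and macrophage list one of 1.59.

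Genes just outside the clusters were compared as well, since they share the chromosome region and, apart from Evx1 and Evx2, not the homeobox. In RefSeq the genes of all 4 clusters lie in the order of their paralogue numbers, on chromosomes 4, 10, 7 and 3 for A to D. Of 19 flanking genes with at most 4 protein-coding genes between them and the nearest Hox gene, 2 rose and 2 fell, 21.1% against 14.2% of all genes. Skap2, an adaptor of immune cell signalling that flanks cluster A, rose by 0.76 (SE 0.12, adjusted p = 0.0025), and Snx10, a sorting nexin that also flanks cluster A, fell by 0.51 (SE 0.13, adjusted p = 0.021). Copz2, a coat protein subunit on the Hoxb1 side, rose by 0.59 (SE 0.10, adjusted p = 0.0027), and Lnpk, a shaper of the endoplasmic reticulum on the Hoxd13 side, fell by 0.58 (SE 0.11, adjusted p = 0.0048). The adjusted p of Snx10 was 0.066 without SCI 2, 0.051 without SCI 3, 0.13 without SCI 3, sham 1 and sham 2, 0.11 with the title number and 0.068 with all probe sets tested. Evx1 and Evx2, homeobox genes at the caudal ends of clusters A and D, did not pass, and Evx2 was dim at 3.10.

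The clusters also hold microRNA genes. The miR-196 family is shown because it lies in 3 clusters and, in mouse, directs the cutting of Hoxb8 mRNA. The mature forms from RefSeq (GRCr8) follow with the seed, bases 2 to 8, in capitals, and lie at chr7:135988900-135988921 (plus strand, between Hoxc10 and Hoxc9), chr4:82661149-82661170 (minus strand, between Hoxa9 and Hoxa10) and chr10:81727561-81727582 (plus strand, between Hoxb13 and Hoxb9).
rno-miR-196a-5p: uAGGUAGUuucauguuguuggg
rno-miR-196b-5p: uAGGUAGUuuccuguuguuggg
rno-miR-196c-5p: uAGGUAGUuucguguuguuggg

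All 3 share 1 seed. The array has a probe set for each of these genes, which cannot tell precursor from mature RNA, and they were looked up after other values were seen. Mir196c read 4.88, 4.74, 4.85 and 5.13 in SCI arrays, against 4.86, 5.04, 5.05 and 5.14 in sham arrays. It was above the receptor level, and its groups overlapped (-0.12, SE 0.11, adjusted p = 0.55). Mir196a and Mir196b were dim, with means of 2.05 and 2.33, as were Mir10a (1.79), Mir10b (1.54) and Mir615 (3.29). The antisense transcript Hoxa11-as was dim as well, with a mean of 3.49. Of these 7, 0 passed limma's test and 0 had an unadjusted p under 0.05, against 14.2% and 26.7% of all genes.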

How the data were processed

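The deposited values are log2 signals per probe set, made by the authors with Affymetrix Expression Console and RMA, per the submitters' processing notes. RMA corrects background, evens out the arrays and summarises probes, and tends to compress dim signals. The versions, settings and build behind them were not given in the sources used here. Of 36685 probe sets, 18511 had 1 gene symbol, 575 several and 17599 none here. For the 291 genes with several probe sets the one with the highest mean was kept. SCI and sham were compared over 18166 genes with limma 3.58.1 in R 4.3.3 (lmFit, eBayes, no covariate), with Benjamini-Hochberg adjustment over all genes and calls at an adjusted p under 0.05. The fit was tested on simulated data. The number of arrays, 4 per group, limits the precision.

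Named in full were called Hox genes, those of numbers 8 to 11 above the receptor level, the 6 brightest and the 4 with the largest differences; Hoxb6 was added afterwards. From the other lists described, called genes among the 4 smallest p-values were named. Other genes of these lists given with values were picked afterwards. In the cell type lists, 5 fixed genes were named. Lists of motor and preganglionic column, endothelial, Schwann cell and ganglion, ependymal, skeletal muscle and blood cell genes were also read and are not described. Of 17 motor and preganglionic column genes, 2 were called, both higher (11.8% against 14.2% of all genes). The members and lists were chosen with earlier results of these data known. Replicates were numbered in sample order. Alternatives were scaling, filtering, probe set choice, variance model, array weights, the title number as covariate, and leaving out arrays. The title number is the second number in each sample title, and the titles do not say what it stands for. It was 4, 6, 7 and 8 in SCI arrays and 5, 9, 10 and 11 in sham arrays, so it overlaps with the group. Hox paralogues are alike in sequence and may share some probe signal.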

Additional observations from a re-analysis of the deposited data

Results flagged for a closer look

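Among 64 sets of 4 arrays (31 Hox genes and the caudal minus rostral value, each in 2 groups), 9 had 1 array far from the other 3, by Dixon's test of its gap to the nearest of them. Chance gives about 1 in 20. In SCI 4, Hoxb1 was low at 3.52 (other SCI arrays 4.26 to 4.30), Hoxa6 was high at 7.61 (7.29 to 7.33) and the dim Hoxb13 was high at 2.56 (2.13 to 2.18). In sham 2, Hoxd4 was high at 4.77 (other sham arrays 4.22 to 4.29) and Hoxc9 was high at 5.58 (5.33 in each of the other 3). In sham 4, Hoxb5 was low at 4.74 (5.07 to 5.14) and Hoxb13 low at 2.13 (2.32 to 2.34). In sham 1, Hoxb3 was low at 4.24 (4.71 to 4.80). In sham 3 the caudal minus rostral value was -0.55, against -0.25 to -0.21 in the other sham arrays.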

How the results depend on the processing

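The count of 0 higher Hox genes was the same in all 17 alternatives. The count of 1 lower Hox gene was 0 with quantile normalisation, with all probe sets tested, with the title number as covariate and without SCI 3, sham 1 and sham 2. It was 2 with a variance trend and robust fit and 3 with dimmer genes left out, and 0 to 1 when 1 array was left out. Over all genes, 1290 were higher and 1282 lower. The split was 1134 and 1568 with each array centred on its median and 1367 and 1814 with dimmer genes left out. With all 36685 probe sets tested, 1028 were higher and 838 lower, which counts probe sets and not genes. Higher and lower genes numbered 813 and 543 with the title number, and 563 and 284 without SCI 3, sham 1 and sham 2. Leaving out 1 array gave 923 to 1257 higher and 780 to 1283 lower genes. The Hoxb9 difference of -0.04 was 0.082 with the title number and 0.020 without the 3 arrays, and it ran from -0.17 to 0.045 when 1 array was left out. Hoxc8 ran from -0.0093 to 0.12 in those fits. The cause of these shifts was not tested. Fits that left out arrays rested on fewer arrays, and the fit of all probe sets adjusted over more features. The caudal minus rostral difference was 0.066 to 0.18 when 1 array was left out, 0.14 with dim genes included, and, in settings chosen after seeing the data, 0.19 for numbers 10 and 11 minus 4 to 8 with dim genes included and 0.24 without the 3 arrays. The planned form of numbers 10 and 11 above the receptor level could not be computed, since no such gene was. No paired analysis was possible because the labels give the groups no shared replicate numbers. Signal over background limits the genes from number 10 on.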
